A study of Mus musculus with 2 samples.

Results

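The cells described here are the vascular smooth muscle cells of the mouse dental pulp, the soft, vascular tissue inside the tooth. They are 268 of the 4012 cell barcodes kept from 6050 in a single-cell RNA-seq series, 155 of the 2329 control barcodes and 113 of the 1683 from the Vegfr2 knockout. Both libraries came from C57BL/6 mice at postnatal day 12. The control library carried the genotype label control and the other the label Vegfr2 knockout. The knockout is an endothelial one of Vegfr2 (Kdr), the gene of the main VEGF receptor of endothelium. Pulp was digested with enzymes and cells that excluded propidium iodide, a stain of dead cells, were sorted for 10x 3' libraries. The Cre driver, the alleles, the number of animals in each library and any deletion carried by the controls are not given in the sources used here. Smooth muscle cells are not endothelial, but the genotype label names no cell type and does not show whether they carried the deletion.

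Vascular smooth muscle cells wrap arteries and arterioles and set vessel width by actin and myosin contraction, which calcium release and myosin light chain phosphorylation drive. Pericytes, their neighbours in the mural lineage, sit on capillaries and carry few contractile filaments. The contractile genes are switched on by serum response factor (SRF) with its partner myocardin, which bind the CArG box, and Notch3 signalling from the endothelium is known to keep arterial smooth muscle in its mature state.

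Cells were chosen by counts of unique molecular identifiers (UMIs, each standing for 1 captured mRNA). Barcodes were kept with 500 genes or more, 1000 UMIs or more and a mitochondrial share no higher than 10%. It was called mural with a UMI of at least 3 of 6 genes (Rgs5, Notch3, Pdgfrb, Cspg4, Abcc9 and Myh11) and 0 UMIs of Cdh5, Ptprc and Sox10. A mural cell was called smooth muscle where the summed UMIs of Myh11, Casq2 and Mustn1 exceeded those of Kcnj8, Abcc9, Higd1b and Steap4. The reverse gave 225 control and 117 knockout cells, called the pericyte side of the rule below, and 36 and 10 ties were dropped. These 14 genes chose the cells, so their levels are given as description.

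Each genotype had 1 library, so differences between genotypes were neither tested nor checked across replicates. A level is given as CPM, the UMIs of a gene per 1000000 UMIs of the summed cells, and a pair of values gives control first and knockout after it. Exact 95% intervals stand in brackets after ratios (Poisson) and shares (Clopper-Pearson), and they cover counting error only. In all, control smooth muscle cells held 2242443 UMIs and knockout ones 995658. The median smooth muscle cell had 13126 UMIs from 3906 genes in control and 8697 UMIs from 3123 genes in knockout, and a median of 4.76% and 5.29% mitochondrial UMIs. A barcode sequence occurred in both libraries 3 times, and 0 of these were smooth muscle cells. The sexes were mixed unequally: 80.6% of control and 45.1% of knockout smooth muscle cells had Xist UMIs and none of 4 Y-linked genes, and 11.6% and 33.6% had the reverse. Kdr was at 993 CPM in control and 595 CPM in knockout endothelial barcodes, and at 3 UMIs and 1 UMI in all smooth muscle cells. Reads at the 3' end of Kdr do not show whether an upstream exon was deleted, so they do not check the genotype label.

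Smooth muscle cells made up 6.66% of control (5.68 to 7.74) and 6.71% of knockout barcodes (5.57 to 8.02), a knockout over control ratio of 1.01 (0.785 to 1.29). Endothelial barcodes, those with UMIs of Cdh5 and none of Ptprc (the immune class) or Sox10 (the glial class), numbered 389 and 135, and smooth muscle cells were 7.99% and 7.30% of the others. Of mural cells, 37.3% in control (32.6 to 42.1) and 47.1% in knockout (40.6 to 53.6) were smooth muscle, a ratio of 1.26 (0.983 to 1.62). The pericyte side was 9.66% of control and 6.95% of knockout barcodes, a ratio of 0.720 (0.571 to 0.904). The rule reads UMIs, and the libraries differ in depth. With every barcode thinned to 2000 UMIs and mural called at 2 or more of the 6 genes, smooth muscle cells were 6.77% of control and 6.47% of knockout barcodes, and 49.3% and 50.5% of mural cells. At equal depth both shares therefore lay within the intervals of the other library.

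The rule genes set the cells apart by a wide margin in most cells. The smooth muscle sum exceeded the pericyte sum by a median of 26 UMIs in control (1 to 146) and 18 UMIs in knockout (1 to 81), and by fewer than 5 UMIs in 10 and 19 cells. Just inside the threshold, at a margin of 1 UMI, lay 5 control and 5 knockout cells, and just outside it, at -1, lay 46 and 24 cells. Acta2, which the rule did not use, was at 40.7 and 64.8 CPM in the former, from only 2 UMIs in each library. In the latter it was at 22.3 and 47.8 CPM, from 15 and 10 UMIs. Myh11, the smooth muscle myosin heavy chain, was at 1613 and 1499 CPM. Casq2, a calcium store protein, was at 829 and 629.7 CPM, and Mustn1, a small nuclear protein of muscle and skeleton, at 534 and 756 CPM. On the pericyte side Myh11 was at 40.0 and 30.4 CPM. Of the shared mural genes, Rgs5 was at 24620.0 and 26584 CPM and Notch3 at 1154 and 1685 CPM. The pericyte channel gene Kcnj8 had UMIs in 123 of 155 control and 72 of 113 knockout smooth muscle cells and was at 227 and 177 CPM, so the rule separates the mural classes by the balance of these genes, and many smooth muscle cells hold both kinds.

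The label was checked against markers that the rule did not use. Acta2, smooth muscle alpha-actin (mm10 chr19:34241090-34255590, minus strand, protein-coding), was at 4534 CPM in control and 4485 CPM in knockout smooth muscle cells, and had UMIs in 141 of 155 control and 108 of 113 knockout cells. The control cells ranged from 0 to 431 Acta2 UMIs with a median of 32, and the knockout cells from 0 to 200 with a median of 27. At 2000 UMIs per cell, 84.3% of control and 91.3% of knockout smooth muscle cells had an Acta2 UMI. In immune barcodes, which should lack the gene and had medians of 15092 and 9513 UMIs, the share was 2.33% and 3.85%. The unthinned shares were 91.0% and 95.6% in smooth muscle cells against 11.0% and 16.9% in immune barcodes. By Acta2 the label smooth muscle holds against immune barcodes in both libraries. On the pericyte side the share at 2000 UMIs was 6.76% in control and 19.7% in knockout, so Acta2 sets the mural classes apart less clearly in knockout.

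Most markers of other cell types were sparse in the smooth muscle cells. Cdh5, Sox10 and Ptprc, on the endothelial, glial and macrophage lists, were at 0 UMIs by the rule and do not check the label. Of 10 endothelial markers 9 were seen in each library, at a summed 248 and 292 CPM, of which Esam, an adhesion gene of endothelium and mural cells, made up 219 and 260.1 CPM. Pecam1, the defining endothelial gene, had 3 and 2 UMIs. Glial markers summed to 157 and 176 CPM, including Fabp7 at 95.4 and 50.2 CPM. Macrophage markers summed to 45.5 and 122 CPM, neutrophil markers to 26.3 and 68.3 CPM, lymphocyte markers to 0.892 and 3.01 CPM and erythrocyte markers to 2.68 and 2.01 CPM. Epithelial and ameloblast markers summed to 7.14 and 20.1 CPM. The odontoblast list summed to 334 and 286 CPM, nearly all of it Nes at 304 and 262 CPM, while the dentin gene Dspp had 2 UMIs and 0 UMIs. The cartilage list summed to 219 and 290 CPM, mostly Acan at 192 and 270.2 CPM. Skeletal muscle markers had 5 UMIs in each library and cardiac markers 3 UMIs and 1 UMI, so striated muscle genes were nearly absent. The pericyte list summed to 26914 and 28518 CPM, mostly Rgs5, against 6917 and 6379 CPM on the pericyte side. Its member Atp13a5 had 0 UMIs in smooth muscle cells and on the pericyte side, so it does not separate the classes. Rgs5, Kcnj8, Abcc9, Higd1b and Steap4 of this list chose the cells, so their levels do not check the label. Of the members that the rule did not use, Ndufa4l2 was at 1095 and 867 CPM against 262 and 202 CPM on the pericyte side. Cox4i2 was at 594 and 567 CPM against 444 and 640 CPM, and Vtn at 7.14 and 4.02 CPM against 1.00 and 1.96 CPM. The rule gene Steap4 was at 25.4 and 14.1 CPM against 54.7 and 64.6 CPM. Markers of pulp mesenchyme, the fibroblast-like cells of the pulp, summed to 516 CPM in control and 1207 CPM in knockout smooth muscle cells, and a cell held 0 to 142 and 0 to 171 of these UMIs. At least 3 of these 10 genes were seen in 34.2% and 27.4% of smooth muscle cells.

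The pericyte side looked different. At least 3 of the 10 pulp mesenchyme genes were seen in 70.7% of its control and 76.9% of its knockout cells, and the list summed to 6875 and 9084 CPM there. The counts for the lists are therefore also given without those cells, which left 66 control and 27 knockout cells with 605910 and 161965 UMIs. In that smaller set Kcnj8 was at 777 and 871 CPM and Abcc9 at 1284 and 1074 CPM, above the smooth muscle values of 227 and 177 CPM and 319 and 238 CPM. Both genes helped to place cells on this side, so these levels are description only. The smooth muscle cells were not filtered in that comparison, although 34.2% and 27.4% of them held at least 3 of the same genes. Counts are therefore also given with such cells left out of both classes, which kept 102 and 82 smooth muscle cells. Both sets were formed after the data were seen.

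**Figure D1:**
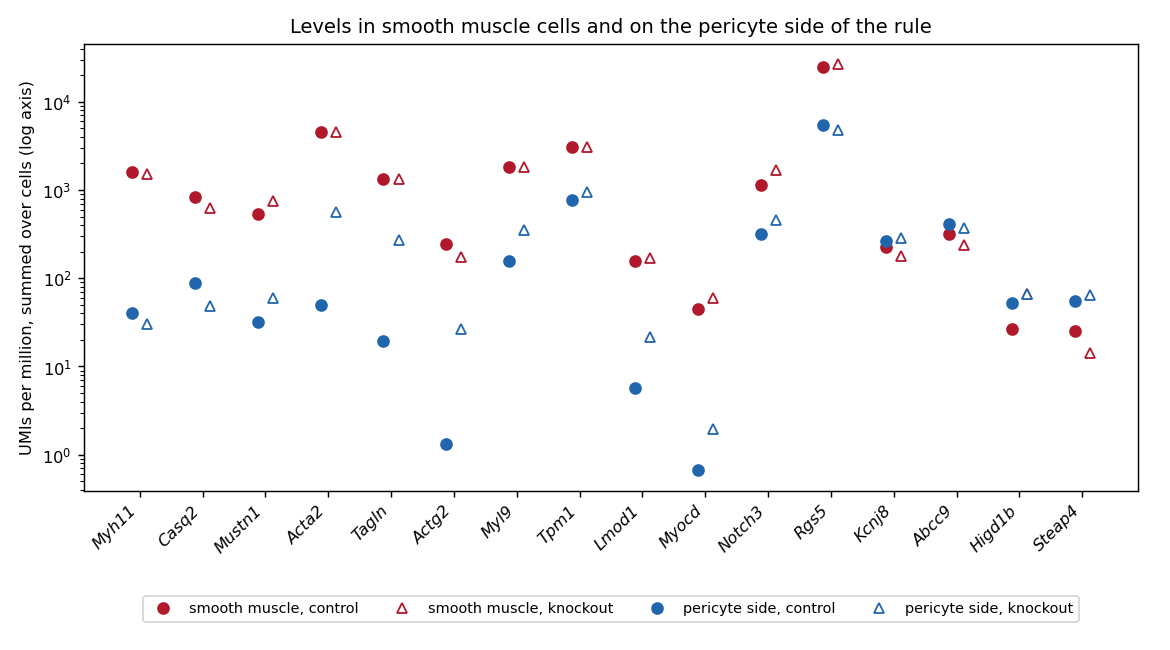
Level of 16 genes on a log axis (CPM, summed over cells) in smooth muscle cells (red) and on the pericyte side of the rule (blue), control as filled circles and knockout as open triangles. Acta2, Tagln, Myl9, Tpm1, Lmod1 and Myocd, which chose no cell, lie higher in red in both libraries, and Acta2 and Tagln stand higher on the knockout than on the control pericyte side.

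Contractile genes were mostly higher in smooth muscle cells than on the pericyte side. Among 6116 genes with at least 50 UMIs over both classes in each library, 370 (6.05%) were at least 2-fold higher and 484 (7.91%) at least 2-fold lower than on the pericyte side in both libraries. Of 21 measured members of the thin filament and cytoskeleton list, 17 were higher and 1 was lower, with a median log2 ratio of 1.77 in control and 1.64 in knockout against -0.06 and 0.04 for all genes. Acta2 was 90.7 (77.2 to 107) times its pericyte side level in control and 8.02 (7.35 to 8.77) times in knockout. Tagln, which makes the actin-binding protein transgelin, was at 1328 and 1349.9 CPM against 19.3 and 272 CPM. Actg2, the gamma isoform of smooth muscle actin, was at 243 and 176 CPM against 1.33 and 26.4 CPM. Lmod1, which nucleates actin filaments, was at 158 and 172 CPM against 5.67 and 21.5 CPM. The single lower member, Sorbs2, an actin-linked adaptor, was at 37 and 89.4 CPM against 141 and 246 CPM.

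On the pericyte side, unlike in smooth muscle cells, Acta2 differed between the libraries, with 150 UMIs of 2999431 in control and 571 of 1021379 in knockout. Acta2 UMIs were found in 35 pericyte side cells of each library, and the 10 cells with most of them held 81.3% of its UMIs in control and 90.9% in knockout. Against the pericyte side without pulp mesenchyme cells the ratio of smooth muscle cells was 72.3 and 2.31 for Acta2 and 67.1 and 1.56 for Tagln. There Acta2 UMIs were found in 11 of 66 control and 19 of 27 knockout cells, and 1 cell held 44.8% of the knockout Acta2 UMIs. Of the 21 measured members of the contraction list, 6 were at least 2-fold higher in both libraries, among them Acta2, Actg2, Csrp2, Sorbs2 and Crip1, and 0 were lower, where 84 of 3882 genes (2.16%) were higher and 38 (0.979%) lower. Sorbs2 thus lay below the whole pericyte side and above the smaller set. With pulp mesenchyme cells left out of both classes 5 of 20 members were higher, among them Acta2, Actg2, Csrp2 and Crip1 but not Sorbs2, and 0 were lower, where 64 of 2805 genes (2.28%) were higher and 30 (1.07%) lower.

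The calls among myosin genes and their regulators, which need 2-fold in both libraries, were lost when pulp mesenchyme cells were left out. Of 19 measured members, 7 were at least 2-fold higher than on the pericyte side in both libraries and 0 were lower. Of all genes 6.05% were higher and 7.91% lower. Myl9, the regulatory light chain of smooth muscle myosin, was at 1816 and 1835 CPM against 156 and 351 CPM. Mylk, the kinase that phosphorylates this chain, was at 947 and 877 CPM against 217 and 289 CPM. Ppp1r14a, an inhibitor of the opposing phosphatase, was at 66.9 and 54.2 CPM against 11 and 17.6 CPM. Myom1, an M-band protein known mostly from striated muscle, was at 142 and 189.8 CPM against 3.33 and 10.8 CPM, ratios of 42.7 (22.9 to 89.8) and 17.6 (9.63 to 35.9). Cnn1, calponin, a marker of mature smooth muscle, was scarce, with UMIs in 10 of 155 control and 2 of 113 knockout cells and 15.2 and 3.01 CPM. In the smaller set 0 of 18 members were past 2-fold in both libraries, and the same count held with the cells left out of both classes. Myl9 passed 2-fold in control only. Its ratio was 8.73 and 1.83 in the smaller set and 7.29 and 1.79 with the cells left out of both classes.

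The letters of the promoters bear on these genes, since SRF binds the CArG box, a pair of C, 6 bases of A or T and a pair of G, which reads the same on both strands. Exact boxes were searched in the 250 bases upstream of each RefSeq start (GRCm38.p6, the assembly of mm10), and also boxes with 1 mismatch in the middle 6 bases. An exact box stood in 482 of all 32851 windows (1.47%) and one with a mismatch in 2380 (7.24%). By gene, an exact box stood in 1.75% of the 4846 genes with a window that were measured against the pericyte side. It stood in 12 of 267 (4.49%) of those at least 2-fold higher in smooth muscle cells than on the whole pericyte side. Genes called higher numbered 370 against that side and 84 with pulp mesenchyme cells left out of it. Box shares were not counted for the 84. The 12 of 267 were Dgkh, Dmd, Eml1, Filip1, Filip1l, Glipr2, Myl6, Myl9, Myom1, Ripor2, Trpc6 and Vcl. The share with a mismatched box was 9.74% of the higher genes and 7.82% of the measured ones, a smaller difference than for exact boxes. Of the 18 contraction list members with a window only Vcl held an exact box. The windows of Tpm1, Lmod1, Mylk, Smtn, Cnn1, Casq2 and Mustn1 held neither kind. Of the 12, Myl6, Myl9 and Vcl (vinculin) belong to the contractile machinery, Dmd is dystrophin, which ties it to the membrane, and Trpc6 is a cation channel. The windows below show 10 bases on either side of the match, on the gene's strand, with the match in capitals. The 2 Acta2 matches, at 84 and 34 bases upstream, each carry 1 mismatch, and the other matches are exact.
Acta2, chr19:34255438-34255467, minus strand: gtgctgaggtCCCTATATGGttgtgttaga
Acta2, chr19:34255388-34255417, minus strand: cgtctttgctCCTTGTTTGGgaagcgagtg
Myl9, chr2:156775293-156775322, plus strand: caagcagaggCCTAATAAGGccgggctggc
Myl6, chr10:128493040-128493069, minus strand: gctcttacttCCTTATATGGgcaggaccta
Myom1, chr17:71019448-71019477, plus strand: gccttcctggCCATAAAAGGctggctgtgg
Vcl, chr14:20929161-20929190, plus strand: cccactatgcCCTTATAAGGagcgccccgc
Dmd, chrX:82948762-82948791, plus strand: catgggcagtCCTATTATGGgaaagcaact
Trpc6, chr9:8544010-8544039, plus strand: cctttcgatcCCTTTAAAGGtggggatcgt
In GENCODE vM21 the Acta2 windows lie in an exon of a longer transcript of Acta2, the Myom1 window lies in an intron, the Myl6 window in an exon of a non-coding transcript, and those of Myl9, Vcl, Dmd and Trpc6 lie outside the gene. The matches are descriptions of sequence, and no file here measured binding at them.

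Calcium handling genes were partly set apart. Of 17 measured members, 7 were at least 2-fold higher than on the pericyte side in both libraries and 1 was lower. Here and for the next 3 lists, the shares of all genes were 6.05% higher and 7.91% lower. Jph2, junctophilin, which couples surface and store membranes, was at 43.3 and 51.2 CPM against 4.33 and 9.79 CPM. Trpc6 was at 53.5 and 48.2 CPM against 7.33 and 9.79 CPM. Atp2a2, the pump that refills the store, was at 379 and 412 CPM against 152 and 159.6 CPM. Among ion channels 4 of 6 measured members were higher and 0 were lower. Ano1, the calcium-activated chloride channel that depolarises smooth muscle, was at 339 and 490.1 CPM against 112 and 85.2 CPM. Of 9 measured vasoactive receptors 4 were higher and 3 were lower. Ednra, the endothelin receptor of smooth muscle, was at 275 and 324 CPM against 114 and 94 CPM, and Calcrl, which pairs with Ramp1 to bind the nerve peptide CGRP, was at 115 and 173 CPM against 38.7 and 39.2 CPM. In cyclic nucleotide signalling 5 of 14 were higher and 0 lower. Prkg1, the kinase through which nitric oxide relaxes the cell, was at 180.2 and 228 CPM against 55 and 47 CPM. Against the pericyte side without pulp mesenchyme cells few of these differences were past 2-fold in both libraries. There 2 of 14 calcium members were higher and 1 lower, and 0 of 5 ion channels were higher or lower. Of 6 receptors 0 were higher and 1 lower, and 0 of 11 cyclic nucleotide members were higher or lower.

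Transcription factors of the smooth muscle state were in part higher than on the whole pericyte side. Of 13 measured SRF and myocardin factors, 7 were at least 2-fold higher than on the pericyte side in both libraries and 0 lower. Again 6.05% of all genes were higher and 7.91% lower. Myocd, myocardin itself, was at 45 and 59.3 CPM against 0.667 and 1.96 CPM, ratios of 67.5 (18.2 to 565) and 30.3 (8.01 to 256), from 2 UMIs on each pericyte side. Myocd had UMIs in 61 of 155 control and 38 of 113 knockout smooth muscle cells, and remained higher against the pericyte side without pulp mesenchyme cells, where it had 1 UMI in each library. Mef2c, a partner factor in muscle, was at 958 and 1084 CPM against 188 and 168 CPM, and Tbx2 at 532 and 634 CPM against 263 and 188 CPM. In the smaller set Myocd was the 1 member of 13 that was higher in both libraries. With the cells left out of both classes 0 of 9 were past 2-fold in both libraries, Myocd having too few UMIs to be measured. In the Notch pathway 5 of 13 were higher and 2 lower. Heyl, a direct Notch3 target in mural cells, was at 240.4 and 243 CPM against 67.7 and 26.4 CPM. Jag1, a Notch ligand, was at 289 and 321 CPM against 98.4 and 97.9 CPM, and Nrarp, a feedback target of the pathway, at 242 and 369.6 CPM against 33.7 and 51.9 CPM. In the smaller set 1 of 11 members, Nrip2, was higher in both libraries and 0 were lower, as with the cells left out of both classes. Heyl, Jag1 and Nrarp were thus not among those past 2-fold in both libraries there.

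Some of the largest differences were in genes not known as contractile. Acan, the large proteoglycan aggrecan, was at 192 and 270.2 CPM against 12.3 and 0.979 CPM, ratios of 15.5 (11.1 to 22.4) and 276 (49.1 to 10939). Acan had UMIs in 63 of 155 control and 52 of 113 knockout smooth muscle cells, in 15.7% and 28.2% at 2000 UMIs per cell, against 0.179% and 0% of immune barcodes. Col2a1, the defining collagen of cartilage, had 4 and 2 UMIs. Inhba, a subunit of activin, was at 496 and 403 CPM against 5.67 and 24.5 CPM. Cd93, a receptor better known in endothelium, was at 606 and 834 CPM against 38.7 and 76.4 CPM and had UMIs in 143 of 155 control and 103 of 113 knockout cells, while Pecam1 had 3 and 2 UMIs. Olfr78, an olfactory-type receptor that also occurs in vascular smooth muscle, was at 62 and 92.4 CPM against 4.0 and 1.96 CPM. Lama5, a laminin chain, was at 74 and 149.7 CPM against 4.33 and 5.87 CPM, and Fabp4, a fatty acid carrier, at 219 and 218 CPM against 8.33 and 16.6 CPM. Fry, Nrip2, Fam81a, Gpr20, Crip1 and Bcam completed the 15 named by the rule. Against the pericyte side without pulp mesenchyme cells each of the 15 lay above it in both libraries (Acan had 0 UMIs there in knockout), with ratios such as 27.3 and 3.84 for Inhba and 4.22 and 3.46 for Cd93, and Bcam was below 2-fold at 1.82 and 1.79.

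The genes lower in smooth muscle cells depended on the pulp mesenchyme cells. The 15 named were Gja1, Gpx3, Kcnj15, Trf, Tnc, Dio3, Kctd12, Matn4, Col9a2, Slc4a4, Flrt3, Rspo4, Limch1, Cldn10 and Irx5. Tnc, the matrix protein tenascin C, was at 44.1 and 72.3 CPM against 1226 and 1648 CPM, and Gja1, the gap junction protein connexin 43, at 5.35 and 4.02 CPM against 215 and 244 CPM. Without the pulp mesenchyme cells the pericyte side held Tnc at 39.6 and 55.6 CPM and Gja1 at 6.6 and 6.17 CPM. With those cells left out of both classes Tnc was at 14.2 and 22.6 CPM in smooth muscle cells against 39.6 and 55.6 CPM, from 24 and 9 pericyte side UMIs, and Gja1 had 0 UMIs in smooth muscle cells and 4 and 1 UMIs on the pericyte side. Kctd12, a subunit of GABA-B receptors, was at 1785 and 2781 CPM on the whole pericyte side and 33 and 12.3 CPM without those cells. Rgs5, the shared mural gene, depended on them too: its smooth muscle over pericyte side ratio was 4.54 and 5.61 with all cells and 1.15 and 1.37 without the pulp mesenchyme cells. The part of pulp mesenchyme transcripts in other ratios was not tested.

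**Figure D2:**
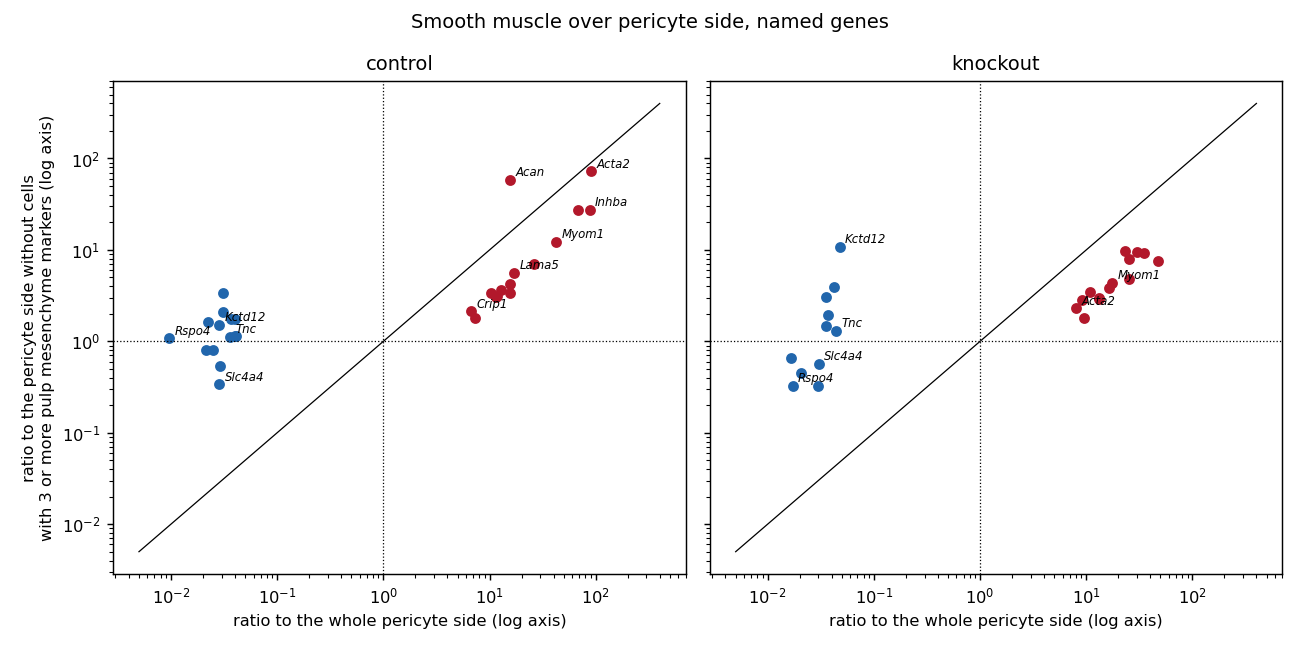
Ratio of smooth muscle cells to the pericyte side for the 15 higher (red) and 15 lower (blue) named genes, to the whole pericyte side (x) and to the pericyte side without cells with 3 or more of 10 pulp mesenchyme markers (y), log axes, 1 panel per library. Red genes stay above 1 on both axes, while blue genes, far below 1 on the x axis, lie on both sides of 1 on the y axis, and genes with 0 UMIs in a group are not drawn.

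Against the smaller set, with the same naming rule, the 15 genes highest in smooth muscle cells were Acan, Susd5, Rcan2, Map1b, Cdh6, Ctnnd2, Alpl, Rbm24, Cd93, Nmnat2, Actg2, Inhba, Fam81a, 2900026A02Rik and Nrip2. Alpl, tissue-nonspecific alkaline phosphatase, was at 4.03 and 4.58 times its level there. Cdh6, a cadherin, was at 119 and 143 CPM in smooth muscle cells, and Rcan2, a calcineurin regulator, at 84.3 and 220.0 CPM. The 15 lowest were Timp3, Adgrf5, Rora, Neat1, Mgp, H2-M9, Plat, Loxl2, Bzw2, Slc12a2, Id4, Lamb1, Stc1, Arhgdib and Dlc1. Timp3, an inhibitor of matrix proteases, was at 0.116 and 0.185 times its level on that pericyte side, Mgp, matrix Gla protein, at 0.0818 and 0.303 times, and Slc12a2, a chloride importer, at 0.355 and 0.371 times.

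Matrix and adhesion genes differed from the whole pericyte side in both directions. Of 16 measured basement membrane genes, 5 were at least 2-fold higher than on the pericyte side in both libraries and 1 was lower. The shares of all genes were 6.05% higher and 7.91% lower. Col4a1, a type IV collagen chain, was at 3571 and 2943 CPM against 932 and 947 CPM. Of 18 adhesion genes 11 were higher and 3 lower. Itga7, a laminin receptor of muscle, was at 240.4 and 312 CPM against 43.7 and 52.9 CPM, and Gja4, connexin 37, at 246 and 255 CPM against 53 and 41.1 CPM. Of 14 elastic fibre genes 0 were higher and 6 lower. Eln, elastin itself, was at only 23.2 and 51.2 CPM. Of 26 genes of fibrillar and synthetic state matrix 3 were higher and 10 lower. Bdnf, a neurotrophin, was at 55.3 and 54.2 CPM against 5.33 and 5.87 CPM. Pdgfa, the growth factor that acts on mesenchyme, was at 282 and 376 CPM against 51 and 78.3 CPM, whereas the chemokine Cxcl12 was at 53.5 and 73.3 CPM against 689.8 and 818 CPM. Bdnf was at least 2-fold higher also against the smaller set. Few of the matrix and adhesion calls were made there: 1 of 15 basement membrane members (Lama5) was higher and 1 (Lamb1) lower, 1 of 15 adhesion members (Cdh6) was higher and 0 lower, and 0 of 8 elastic fibre members were higher and 1 (Loxl2) lower. Of 22 fibrillar and synthetic state members Vcan and Lum, which belong to the genes that chose the cells left out, were higher, and Mgp and Timp3 were lower. With the cells left out of both classes 0 of 18 of these were higher and 3 (Col6a3, Mgp and Timp3) lower.

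The smooth muscle cells differed among themselves in contractile, matrix and lipid carrier transcripts. In cells thinned to 2000 UMIs (153 control and 103 knockout, with 2 and 10 shallower cells left out) the 12 genes with the highest variance-to-mean ratio were Malat1, Gm42418, Acta2, Col1a1, Rgs5, Tagln, Fabp4, Actb, Fabp5, Mgp, Vcan and Col1a2. The variance-to-mean ratio of Acta2 was 9.23 in control and 9.44 in knockout, where the median of 1313 genes was 1.09 in the control library. Acta2 ranged from 0 to 36 thinned UMIs per control cell and from 0 to 64 per knockout cell. Fabp4 was seen in 34 of 153 control and 16 of 103 knockout cells and reached 14 and 10 UMIs. Vcan, the proteoglycan versican, was seen in 14 and 12 cells and reached 13 and 8 UMIs, so most thinned cells had none.

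Across cells the contractile genes varied together. The genes whose thinned counts were most like those of Acta2, among 1314 genes, were Myl9 (Pearson r of 0.68 over 153 control and 0.77 over 103 knockout cells), Tagln (0.69 and 0.60), Tpm2 (0.56 and 0.58), Tpm1 (0.55 and 0.70) and Myl6 (0.51 and 0.65), followed by Vim, Actb, Myh11, Actg2, Flna, Fabp5 and Cfl1. Fabp5, a fatty acid carrier, was thus the 1 gene of the 12 that is not cytoskeletal, with r of 0.51 and 0.36. The genes that ran most against Acta2 were Slc12a2 (-0.41 and -0.34), Col5a3 (-0.35 and -0.29), Pik3r1 and Meg3. Rgs5 ran against Vcan (-0.68 and -0.47). This comparison was chosen after the data were seen. The cells of a library share its preparation, and the values are descriptions with no test.

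**Figure D3:**
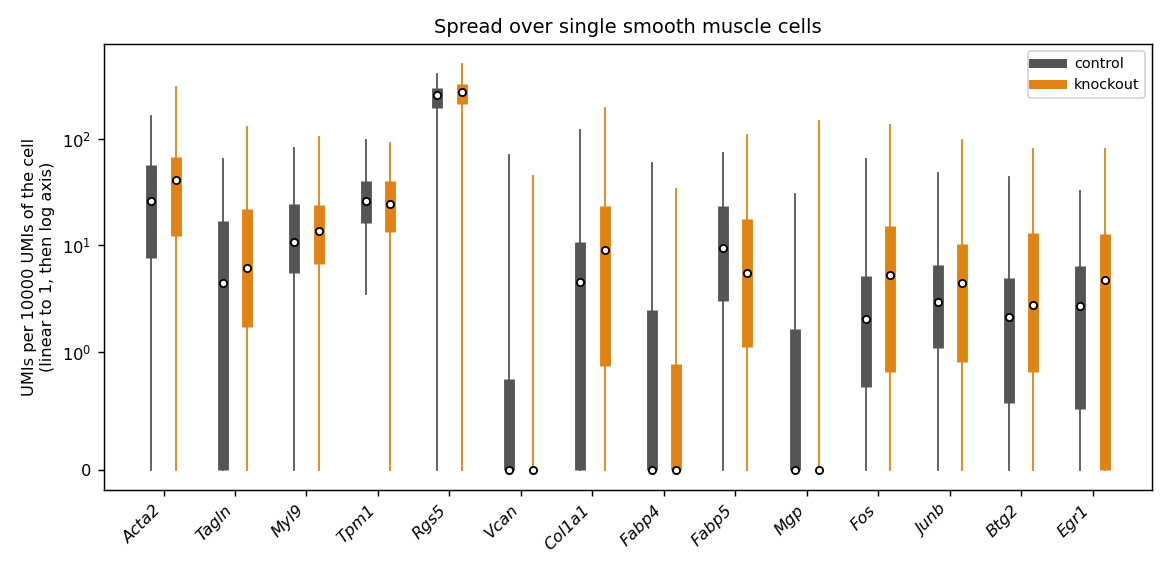
UMIs per 10000 UMIs of the cell for 14 genes over single smooth muscle cells, control (grey) and knockout (orange), on an axis that is linear to 1 and logarithmic above it. Thin lines span the lowest to the highest cell, bars the middle quartiles and white points the median, and Acta2, Tagln and Fos reach from 0 to over 60 in both libraries, while the median of Vcan, Fabp4 and Mgp is 0.

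Between the genotypes most contractile genes were at similar levels. Of 7410 genes with at least 50 UMIs in smooth muscle cells, 781 (10.5%) were at least 1.5-fold higher and 549 (7.41%) at least 1.5-fold lower in knockout, and the median log2 ratio was 0.05. Of 22 measured members of the contraction list 2 were higher, 0 were lower and the median log2 ratio was 0.06. Acta2 was 0.989 (95% interval 0.955 to 1.02) times its control level in knockout. Tagln stood at 1.02 (0.952 to 1.08), Myl9 at 1.01 (0.956 to 1.07) and Tpm1 at 1.0 (0.959 to 1.04). Sorbs2 was among the higher members, at 37 and 89.4 CPM. Among lower values that did not pass 1.5-fold, Tpm2 was at 1378 and 948 CPM, Crip1 at 4536 and 3226 CPM and Actg2 at 243 and 176 CPM. Of 19 myosin genes, Rgs2, a regulator of G protein signals, was higher at 12.9 and 33.1 CPM, and Myh10, a nonmuscle myosin, at 132 and 71.3 CPM, and Rgs4, which damps receptor signals, at 119.5 and 63.3 CPM were lower. The count of contraction members past 1.5-fold was 6 in Xist-positive cells alone and 4 with each cell weighted equally.

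**Figure D4:**
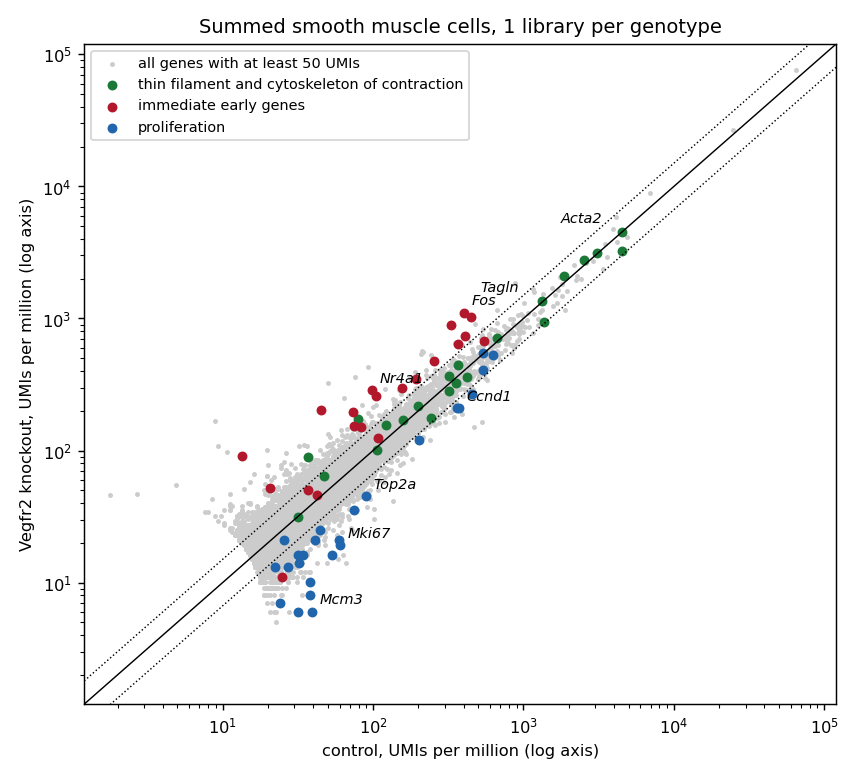
Level of each gene with at least 50 UMIs in summed smooth muscle cells (CPM, log axes), control on x and Vegfr2 knockout on y. The solid line marks equal levels and the dotted lines 1.5-fold, and 20 of 22 contraction genes (green) lie between the dotted lines, most immediate early genes (red) above the upper dotted line and most proliferation genes (blue) below the lower one.

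On the calcium and on the ion channel list 3 genes each passed 1.5-fold between the genotypes, all of them higher in knockout. Of 19 calcium genes 3 were higher, a share near the 10.5% of all genes, and 0 lower, with a median log2 ratio of 0.36. Ryr2, a calcium release channel of the store, was at 20.1 and 46.2 CPM and Cacnb3, a calcium channel subunit, at 36.6 and 56.2 CPM. Of 7 ion channels 3 were higher, a larger share than the 10.5% of all genes, and 0 lower, with a median of 0.56. Kcnk3, a background potassium channel, was at 49.1 and 107 CPM, a ratio of 2.19 (1.66 to 2.89). P2rx4, a channel opened by ATP, was at 41.9 and 67.3 CPM and Trpm4 at 21 and 33.1 CPM. On the pericyte side the medians of these lists were 0.04 and -0.12, and the difference from smooth muscle cells was not tested. Of 12 vasoactive receptors 0 were higher and 1 lower. That one was Adra1a, an adrenergic receptor that contracts vessels, at 64.7 and 40.2 CPM, while Ednra was at 275 and 324 CPM. Of 15 cyclic nucleotide genes Pde10a was higher, with 38.2% of its knockout UMIs in 1 cell, and Pde4d was lower.

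Notch genes gave 2 higher and 0 lower of 13. Of all genes 10.5% were higher and 7.41% lower, the shares to set beside each count in this paragraph. Notch2 was at 50.8 and 112 CPM and Nrarp at 242 and 369.6 CPM, with ratios of 2.21 (1.69 to 2.9) and 1.53 (1.34 to 1.75), while Heyl was at 240.4 and 243 CPM and Hey2 at 89.2 and 81.4 CPM. Of 14 SRF and myocardin factors Klf4, a factor known to oppose the contractile genes, was higher at 101 and 256 CPM, and Mkl2, an SRF partner, was lower at 108 and 58.3 CPM. Myocd was at 45 and 59.3 CPM. Among 14 PDGF, angiopoietin and VEGF signals 2 were higher and 3 lower. Igf1, insulin-like growth factor, was lower at 467 and 152 CPM, 3.08 times lower, and on the pericyte side its ratio was 0.489. Pgf, placental growth factor, a VEGF family ligand, was lower at 235 and 155 CPM, and Angpt1, which stabilises vessels through Tie2, at 41.5 and 26.1 CPM. Fgf1 was at 26.3 and 53.2 CPM and Ephb4 at 12.5 and 23.1 CPM, both higher. Of 26 TGF-beta and BMP genes 5 were higher and 1 lower. Nog, an inhibitor of BMPs, was at 19.6 and 64.3 CPM, a ratio of 3.28 (2.2 to 4.92), Bmp2 at 45.5 and 75.3 CPM, and the co-receptor Eng was lower at 64.2 and 40.2 CPM.

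Several matrix genes were higher in knockout smooth muscle cells. Of 26 measured members of the fibrillar and synthetic list 10 were higher and 1 lower, where 10.5% of all genes were higher and 7.41% lower. The median log2 ratio of the list was 0.32. Col1a1 was at 883 and 1872 CPM and Col1a2 at 475 and 902 CPM, and Timp3 at 63.8 and 251 CPM. Several of the others rested on few cells: 1 cell held 53.9% of the knockout Mgp UMIs, 49.1% of the Lum UMIs, 41.8% of the Thbs1 UMIs and 41.2% of the Dcn UMIs. Postn, periostin, was the lower member at 276 and 163 CPM. The pulp mesenchyme list, which shares Dcn, Lum and Vcan with this list, summed to 516 and 1207 CPM in the same cells, and its part in the matrix values was not tested. Of 12 elastic fibre genes 4 were higher (Eln, Emilin1, Lox and Loxl2) and Loxl3 was lower. Of 15 basement membrane genes Hspg2, Lama5 and Sparcl1 were higher and Lama2 was lower, with Sparcl1 at 667 and 1166 CPM and Lama5 at 74 and 149.7 CPM. Of 19 adhesion genes Cd9 was higher, and Cdh2, at 59.3 and 27.1 CPM, and Itga5, at 29.4 and 12.1 CPM, were lower.

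The immediate early genes are transcription factors and regulators that cells switch on within minutes of a stimulus. Of the 28 lists they had the highest median. Of 21 measured members 16 were higher and 1 was lower, where 10.5% of all genes were higher and 7.41% lower. The median log2 ratio of the list was 0.94. Fos was at 404 and 1108 CPM, a ratio of 2.74 (95% interval 2.51 to 3.0). Junb was at 449.5 and 1020.4 CPM, Btg2 at 329 and 889 CPM and Egr1 at 409.8 and 739 CPM, with ratios of 2.27, 2.7 and 1.8. The orphan nuclear receptors Nr4a1, Nr4a2 and Nr4a3 were at 99 and 288, 45 and 204 and 13.4 and 91.4 CPM. The lower member was Dusp6, a brake on ERK signalling, at 25 and 11 CPM. Other classes were shifted as well: the median log2 ratio of the list was 0.60 on the pericyte side, 0.66 in endothelial, 0.70 in glial, 0.25 in immune and 0.55 in the remaining barcodes. How the size of the shift differs between classes was not tested.

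The highest sums were in a minority of cells. In cells thinned to 2000 UMIs the summed list had quartiles of 3, 6 and 11 UMIs in control cells and of 4, 9 and 25 in knockout cells, and reached 46 and 128. At least 50 UMIs were found in 0 of 153 control cells, which allows a share of up to 1.96%, and in 9 of 103 knockout cells, a limit chosen after the values were seen. These genes varied together from cell to cell, with r between Btg2 and Egr1 of 0.52 in control and 0.72 in knockout cells, and between Fos and Egr1 of 0.40 and 0.69. The sum of the list took 0.437% of the thinned UMIs in control and 0.866% in knockout cells. The upper quartiles differed by more than the medians.

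Inflammation genes were also mostly higher. Of the 28 listed inflammation genes 7 were measured. Of these 5 were higher, where 10.5% of all genes were, and 0 lower, with a median log2 ratio of 0.84. Other classes were shifted too. The list median was 0.19 on the pericyte side, 1.07 in endothelial, 0.80 in glial, 0.19 in immune and 0.39 in the remaining barcodes. Cebpb, a transcription factor of acute responses, was at 93.2 and 428 CPM, a ratio of 4.59 (3.88 to 5.44), and Nfkbiz at 54.4 and 114 CPM. Socs3, an inhibitor of cytokine signalling, was at 32.1 and 107 CPM, while on the pericyte side it was at 80.3 and 54.8 CPM. Of 17 genes of p53 and cell cycle brakes 3 were higher, Cdkn1a, Gadd45b and Gadd45g, beside 10.5% of all genes. Cdkn1a, which makes the cell cycle inhibitor p21, was at 21 and 60.3 CPM. The Cdkn1a ratio was 2.88 in smooth muscle cells, 3.16 on the pericyte side and 7.88 in endothelial barcodes. Of 14 heat shock genes 2 were higher and 0 lower, and 1 cell held 36.2% of the knockout UMIs of Hspa1a. Of 17 genes of the unfolded protein response 1 was higher and 1 lower. Hypoxia and glycolysis gave 3 higher and 1 lower of 18 with a median of 0.08, against a median of 0.78 on the pericyte side and 0.56 in endothelial barcodes. Interferon genes gave 1 higher and 0 lower of 12.

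Proliferation genes were lower. Of 25 measured members 21 were lower and 0 were higher, where 7.41% of all genes were lower and 10.5% higher. The median log2 ratio of the list was -0.995. Mki67, the usual marker of cycling cells, was at 60.2 and 19.1 CPM, Top2a at 90.1 and 45.2 CPM and the replication helicase gene Mcm3 at 39.2 and 6.03 CPM. Few cells carried these transcripts: 9 of 155 control and 2 of 113 knockout cells had at least 10 UMIs over 15 mitotic genes, shares of 5.81% (2.69 to 10.7) and 1.77% (0.215 to 6.25). The 3 cells with most held 64.2% of these UMIs in control and 89.5% in knockout. Ccnd1, cyclin D1, which is not limited to dividing cells, had UMIs in 119 of 155 control and 62 of 113 knockout cells and was at 372 and 209 CPM. At 2000 UMIs per cell 8 of 153 and 2 of 103 cells had 3 or more mitotic UMIs, and at both depths the intervals overlap. The count of lower members was 4 of 7 measured members when cells were thinned before the rule, 4 of 8 in Y-positive cells and 19 of 22 in Xist-positive cells, so fewer members were measured there. The list median was -1.48 on the pericyte side, -1.64 in endothelial and -0.20 in immune barcodes.

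Subunits of the respiratory chain were mostly lower, by less than 1.5-fold. Of 42 measured members 9 were at least 1.5-fold lower, 0 were higher, 2 lay above a ratio of 1 and the median log2 ratio was -0.34. Of all genes 7.41% were lower and 10.5% higher, the shares to set beside each count in this paragraph. Cox8a was at 1244 and 889 CPM, Cox7c at 862 and 599 CPM and Atp5e at 837 and 548 CPM. The medians in the other classes were -0.21 on the pericyte side, -0.44 in endothelial, -0.24 in glial and -0.13 in immune barcodes. Lipid genes gave 2 higher and 3 lower of 17. Pparg, a nuclear receptor of lipid handling, was lower at 67.8 and 32.1 CPM, and Fabp5 was at 1662 and 1309 CPM. Metallothionein and redox genes gave 1 higher and 3 lower of 13, with Sod1, superoxide dismutase, lower at 151 and 77.3 CPM.

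**Figure D5:**
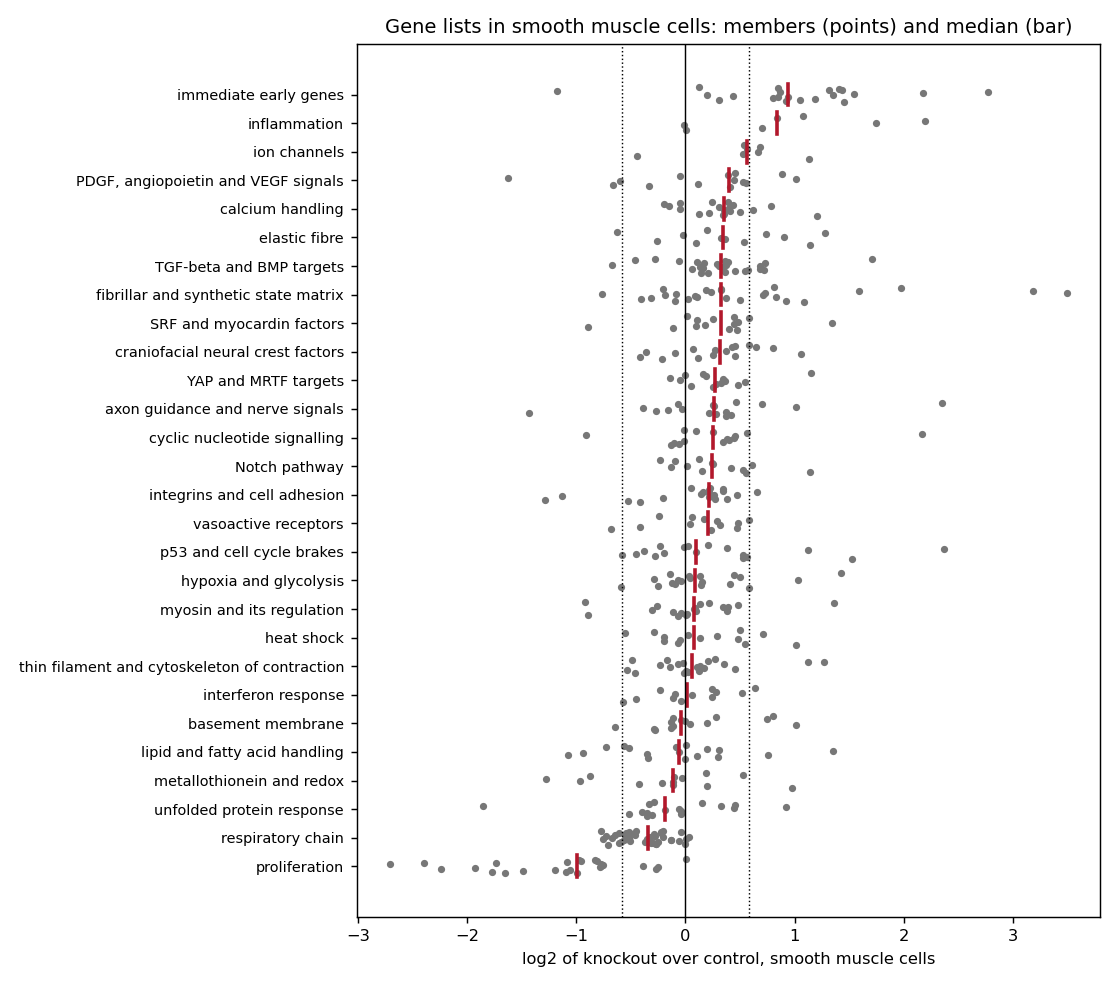
log2 of knockout over control in smooth muscle cells for the measured members of 28 gene lists (points) and the list median (red bar), ordered by median. Dotted lines mark 1.5-fold, and the medians run from -0.995 for proliferation and -0.34 for the respiratory chain to 0.84 for inflammation and 0.94 for immediate early genes, with the contraction list at 0.06.

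Factors of the craniofacial neural crest, the embryonic source of dental mesenchyme, were present in the smooth muscle cells. Barx1, a dental mesenchyme factor, was at 462 and 555 CPM. Of 16 measured members 4 were higher in knockout (Foxf1, Msx1, Pax9 and Sp7), where 10.5% of all genes were, and 0 lower. The median log2 ratio was 0.32. Msx1, which is also on the pulp mesenchyme list, was at 189 and 395 CPM, and at 298 and 568 CPM on the pericyte side. The part of pulp mesenchyme transcripts in these values was not tested. Of 17 axon guidance and nerve signal genes 3 were higher and Robo2 was lower at 27.2 and 10.0 CPM. Of 14 YAP and MRTF targets 1, Fhl2, was higher at 26.3 and 58.3 CPM and 0 were lower.

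Among single genes the rule named 12 higher and 12 lower in knockout smooth muscle cells. Fst, follistatin, the inhibitor of activin, was at 8.92 and 167 CPM, but 1 cell held 75.9% of its knockout UMIs. Epha3, an ephrin receptor, was at 8.47 and 43.2 CPM, against 26.3 and 9.79 CPM on the pericyte side. Eps8, a regulator of actin bundles, was at 11.1 and 47.2 CPM. Nr4a3, Cebpb, Gadd45g, Nr4a2, Fos and Socs3 belong to the lists above. Of the lower genes Mcm3, Mcm5, Atad2, Tpx2, Hist1h4d and Hist1h1b are genes of DNA replication, histones and mitosis, Igf1 is described above, and Grp, a neuropeptide gene, was at 33.9 and 8.03 CPM with UMIs in 24 of 155 control and 4 of 113 knockout cells. Ccdc85b, Gstp1 and Gm10076 were higher, and AY036118, Nme2, Wdr89 and Rps27rt lower, in smooth muscle cells and in each of the 5 other classes. Gstp1, for example, was at 9.36 and 108 CPM in smooth muscle cells, a ratio of 11.6, and its ratio was 12.5 on the pericyte side, 23.1 in endothelial and 17.4 in immune barcodes. The headers give Cell Ranger 5.0.0 for control and 6.0.1 for knockout, so for these 7 genes, as for the others, software version and genotype cannot be told apart.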

How the data were processed

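Both libraries were deposited as raw UMI counts for 31053 genes in barcodes called cells by the authors' pipeline. Per the file headers, this was Cell Ranger 5.0.0 for control and 6.0.1 for knockout. The submitters' processing notes give version 6.0.1 for both, with build mm10. Groups come from the genotype labels, and 0 columns were left without a sample.

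The cells and the gene lists were chosen with earlier results of these data known. UMIs were summed over the cells of a class in a library and scaled to CPM with all UMIs of those cells as the total. Genes entered the genotype comparison with 50 UMIs or more in smooth muscle cells of the libraries together, leaving out mitochondrial, ribosomal protein, haemoglobin, Xist, Tsix and Y-linked genes. The 14 rule genes stayed in the counts over all genes. They are on none of the 28 gene lists, but some are on the lists of cell type markers. A member of a list was called higher or lower at 1.5-fold between genotypes and at 2-fold in each library between classes. Ratios have exact conditional intervals and were checked on simulated counts.

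Named genes between genotypes were the 12 highest and 12 lowest by the interval bound nearest to 1, seen in at least 5 cells and with a level no lower than 25% of any other class. Between classes they were the 15 at each end, and among cells the 12 with the highest variance-to-mean ratio at 2000 thinned UMIs. List members past the fold and up to 4 of the highest level per list could also be named. Other genes named for their role were chosen after their values were seen. Scrublet, as built into scanpy, called 24 of 4012 barcodes (0.598%) doublets, 0 of them smooth muscle cells. None were removed, so doublets may remain. Alternatives covered the mitochondrial limit, the mural rule, the margin, doublets, thinning, sex, cell weighting, scaling, the UMI minimum and the deepest cell. The tools were Python 3.11.15, numpy 2.4.6, scipy 1.17.1, pandas 2.3.3, scanpy 1.11.5 and matplotlib 3.10.9. Promoter windows are from RefSeq and gene positions from GENCODE vM21. Tagln, Myh11 and Myocd had no window in the promoter table. Values of a few members of the lists are not reported here.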

Additional observations from a re-analysis of the deposited data

Results flagged for a closer look

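Epha3 and Socs3 were higher in knockout smooth muscle cells and lower on the knockout pericyte side. The knockout over control ratio of Epha3 was 5.10 in smooth muscle cells and 0.372 on the pericyte side, and that of Socs3 was 3.35 and 0.682. In immune barcodes the Epha3 and Socs3 ratios were 0.378 and 0.644, and in the remaining barcodes 0.198 and 0.660. They were 0.701 and 2.09 in endothelial and 1.06 and 2.06 in glial barcodes. Epha3 had few UMIs in immune, endothelial and glial barcodes, and 1 cell held 25.6% of its knockout smooth muscle UMIs. The difference between the classes was not tested. Barcodes over the mitochondrial limit, which enter no comparison, also held cells that met the gene rule for smooth muscle: 32 of 849 in control (3.77%) and 17 of 614 in knockout (2.77%), with Acta2 at 1254 and 2442 CPM.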

How the results depend on the processing

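No paired analysis was possible because each genotype has 1 library. Without replicates, a value was held to be unmoved when it stayed within its counting interval and a count of genes when it stayed within 1.5 times. The share of smooth muscle cells among kept barcodes, a ratio of 1.01, was 1.56 in Y-positive cells alone (18 and 38 cells). The 781 genes higher and 549 lower in knockout became 182 and 131 in cells thinned to 2000 UMIs before the rule, 243 and 183 in Y-positive cells and 1332 and 1030 at a minimum of 20 UMIs, settings that also change how many genes are tested. The 370 genes higher than on the pericyte side became 220 at a 5% mitochondrial limit, 170 with 4 of 6 mural genes, 163 at a margin of 5 UMIs, 55 after thinning, 140 in Y-positive cells, 84 with pulp mesenchyme cells left out of the pericyte side and 64 with them left out of both classes. The 484 lower genes became 161, 200, 130, 32, 92, 38 and 30 in the same order, and 800 at a minimum of 20 UMIs. The 21 proliferation members lower in knockout became 4 after thinning and 4 in Y-positive cells, where fewer members were measured. The 2 contraction members past 1.5-fold became 6 in Xist-positive cells and 4 with cells weighted equally. Where the setting did not itself change the genes or cells measured, the cause was not tested. The other 85 values that answer a comparison stayed. No knockout over control ratio or list median past 1.5-fold crossed 1, but ratios under 1.5-fold did, such as Acan (0.962 to 2.47) and Inhba (0.507 to 1.05). For the named genes and list medians, 580 values stayed and 81 moved. The comparisons without pulp mesenchyme cells, the counts for the lead lists and the values without the cell with most UMIs of a gene were added after the data were seen. The depth limits genes at a few UMIs, and 1 library per genotype limits every genotype ratio.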
